A study of Zea mays with 2 samples.

Results

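Genes for chromatin-modifying and chromatin-assembly proteins were compared between the stem of the dominant dwarf mutant D11 and the stem of its wild type (WT), the inbred line Mo17. Both stems were taken at tassel emergence, and total RNA was hybridized to the GeneChip Maize Genome Array with 1 array per genotype. D11 was found in the F1 progeny of Mo17 and the inbred line HN06 and was kept by backcrossing to Mo17, B73 and W22. The sources used here do not say which of these backgrounds the array plants had or how many plants were pooled, so effects of the D11 gene and of other donor segments cannot be told apart.

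The members were chosen by name alone. A probe set was taken when its gene carried a maize chromatin gene name, such as hda or hdt for histone deacetylases, mez or fie for Polycomb proteins, met, dmt or mbd for DNA methylation, or nfa, nfc or nfd for chromatin assembly factors. This gave 69 of 17621 probe sets, for 53 of the 1108 genes that the array annotation names. Of the 29 name prefixes searched, 21 found a member. The prefixes srt, chr, chb, chc, chd, gta, gtb and ing found none, so sirtuins and the SNF2-type remodelling ATPases are not analysed here. The name rule also took BET1 (LOC542477), a gene of the basal endosperm transfer layer whose name merely resembles that of the bromodomain proteins. It is counted where all 69 probe sets are meant and is described on its own.

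In plants, DNA is wound around histones, and the packing is changed by enzymes that add or remove acetyl and methyl groups. Histone acetyltransferases go with open, transcribed chromatin, and histone deacetylases remove the mark. Polycomb proteins and DNA methyltransferases keep genes and transposons silent. Histone chaperones and assembly factors load histones onto DNA, above all behind the replication fork, so many of them are active in dividing cells.

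The deposited values are MAS 5.0 signals on a linear scale, each array scaled by the authors. Each fold change sets the D11 signal over that of WT. The 23 Tag and TrpnX control probe sets are made against sequences foreign to maize and gave up to 24.7 in D11, against 27.6 in WT, and signals at or under this level were taken as background and raised to it. A fold against background is therefore a lower bound. The 63 probe sets for bacterial spike transcripts stayed within 1.38-fold, with an SD of 0.20 for their log2 ratios. These transcripts do not come from the plants, and their amounts were taken as equal in both samples. The range of the spikes therefore leaves out differences between plants, dissections or pools. A ratio beyond this range exceeds that of every spike but is not thereby shown to differ between the genotypes. With 1 array per genotype there is no replicate check, no test was made and no error can be given. Signals of different probe sets depend on their probes and are not compared with each other.

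Most chromatin genes gave a higher signal in D11 than in WT stems, by modest amounts. In a bulk stem sample, more cells of a kind and more RNA per cell cannot be told apart. Of the 69 probe sets, 59 were above background in both arrays, 2 in D11 alone, 1 (BET1) in WT alone and 7 in neither. Of the 59, 51 (86.4%) had the higher signal in D11, against 55.0% of the 12462 probe sets of the whole array that were above background in both stems. Their median log2 ratio was 0.46, against 0.06 for all 12462. Among the other named genes, 48.2% of 979 such probe sets were higher in D11, with a median of -0.02. More than the largest spike difference was reached upwards by 29 of the 59 (49.2%, against 21.1% of all) and downwards by 1 (1.69%, against 14.9% of all). The distribution of the chromatin ratios was thus placed to the right of that of all probe sets.

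**Figure D1:**
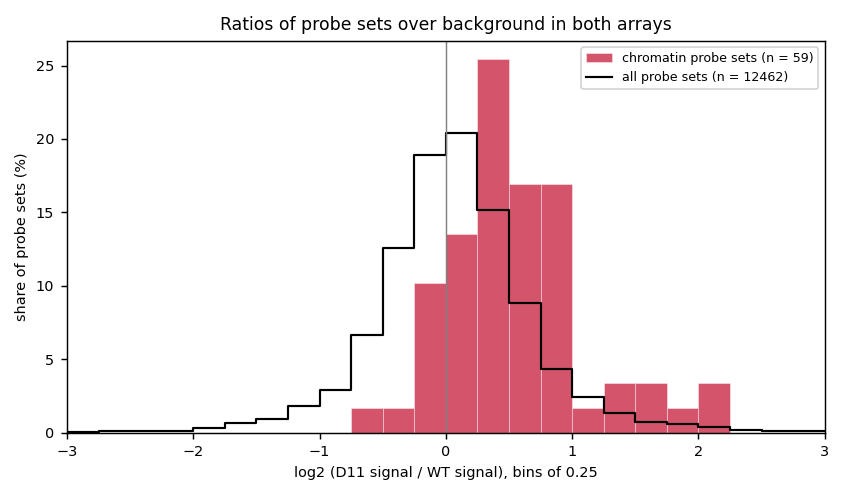
Share of probe sets (%, vertical axis) by log2 ratio of D11 over WT signal (horizontal axis, bins of 0.25), for 59 chromatin probe sets (red bars) and all 12462 probe sets above background in both arrays (black line). Of the chromatin probe sets, 51 lie to the right of 0, and the median of the 59 is 0.46.

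Large differences were few. No member was at least 5-fold higher or lower in D11 by the deposited signals (0 of 69 each way), where the background over all 17621 probe sets was 2.26% higher and 2.57% lower. With background signals raised to the controls it was again 0 of 69 each way, against only 0.789% and 0.153% of all probe sets. The lack of 5-fold members is therefore near the background. At 2-fold, with background signals raised to the controls, 8 of 69 were higher and 0 lower, against 5.45% and 3.13% of all probe sets. Among the 59 above background in both arrays the 8 make 13.6%, against 6.20% of all higher and 3.95% lower, and against 7.56% higher among the 979 probe sets of other named genes. With each gene counted once, 6 of 53 were at least 2-fold higher, against 8.21% of all named genes. Without probe sets of the kinds that can bind several transcripts, 3 of 50 were, against 5.33% of all, so that the share was then near the background. The 8 probe sets belong to 6 genes, nfd106, nfd101, met2, met5, nfc104 and fie2, and 3 of them read the same gene, met5. The probe sets of nfd101 (name ending in _s_at), met5 (_a_at and _x_at) and fie2 (_a_at) are of kinds that can bind several transcripts. Such transcripts can be of the same gene, and whether other genes add to these signals was not tested. By gene, 42 of 51 genes with a usable signal were higher in D11 and 9 were lower, BET1 among these 9. The remaining genes, fie1 and hda106, were at background in both stems. Of all probe sets above background in at least 1 array, 54.8% were higher in D11, and of those of other named genes 49.1%. Of the 62 such member probe sets, 29 lay within the range of the spikes in either direction.

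The higher signals were found among moderate and strong signals. With a geometric mean signal over 500, 23 of 27 chromatin probe sets were higher in D11, against 49.1% of all 5251 of this brightness. Their median log2 ratio was 0.42, against -0.01 for all 5251. Between 100 and 500, 24 of 27 were higher, against 62.3% of all 5080, with a median of 0.46, against 0.16. Under 100 there were only 5, of which 4 were higher, against 52.0% of all 2131 with a median of 0.02. Of these 4, 3 are the met5 probe sets, and the others of the 5 are sdg113, which was higher, and HMG11, which was lower, so no shift is shown there.

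**Figure D2:**
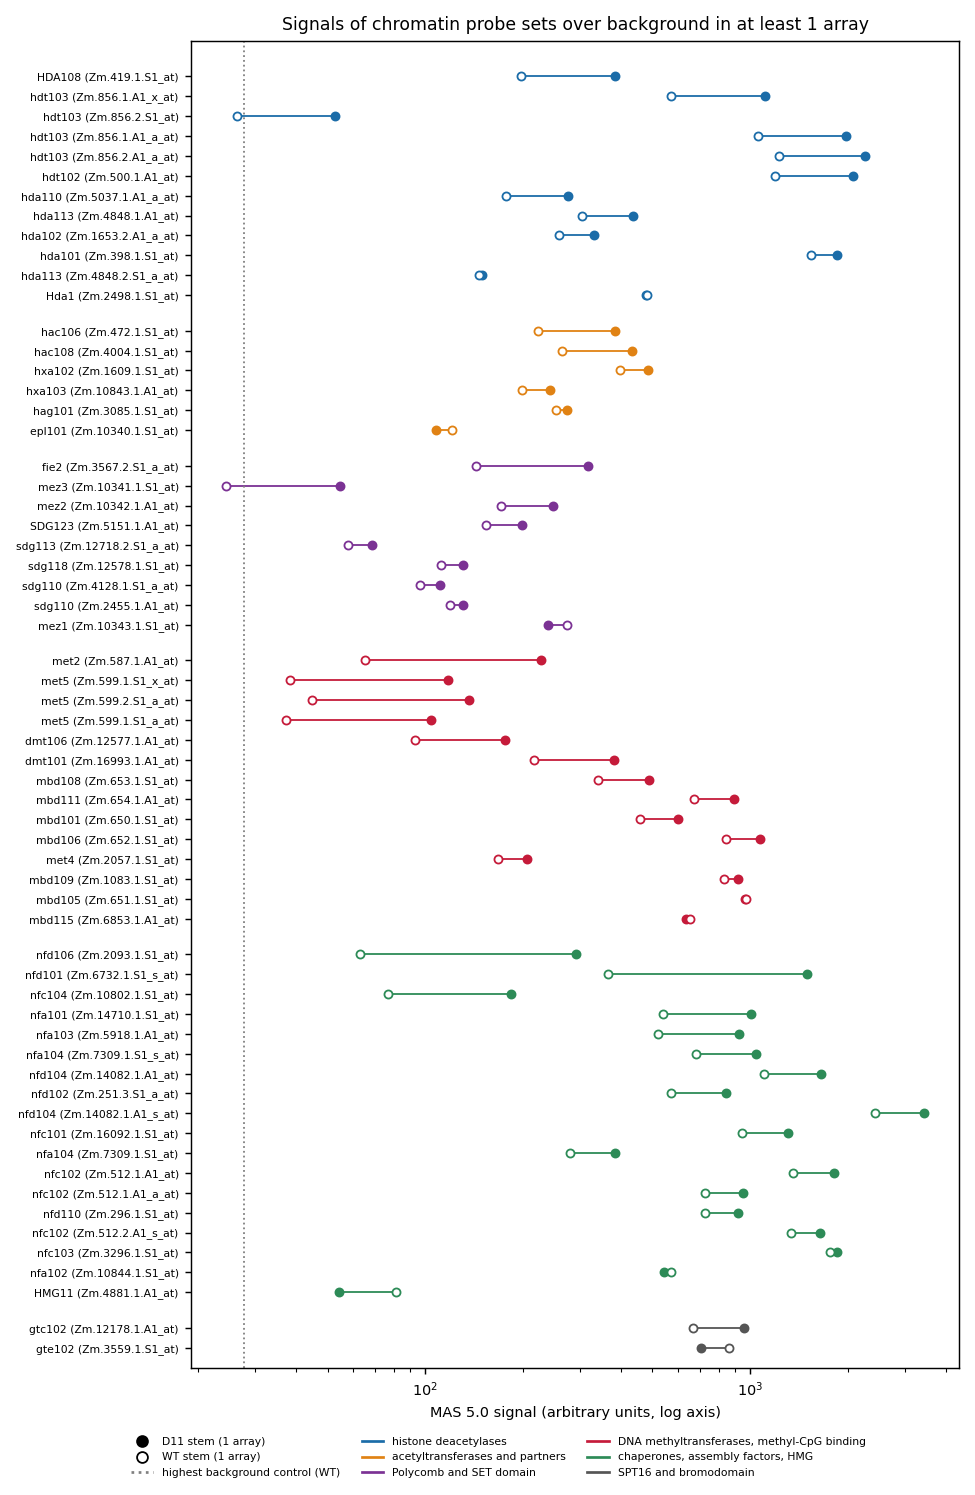
MAS 5.0 signal (horizontal log axis, arbitrary units) of each chromatin probe set above background in at least 1 array, with D11 as filled and WT as open circles, ordered by ratio within each family. BET1 is not drawn, and levels of different probe sets cannot be compared. The filled circle lies to the right for most lines, with the longest lines for nfd106 and nfd101.

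Histone deacetylases remove acetyl groups from histone tails. Of 9 such genes, 8 had a usable signal and 7 of these were higher in D11. The HD2-type deacetylases, a plant-specific class found in the nucleolus, were high in D11 by every probe set above background. The gene hdt102 (HD2b, LOC542636) had 2075 in D11, against 1193 in WT (1.74-fold). The gene hdt103 (Zm-HD2c, LOC542355) is read by 4 probe sets, with 1969, 2252, 1110 and 52.9 in D11, against 1060, 1227, 572 and 26.4 in WT. The first 3 were 1.86-fold, 1.84-fold and 1.94-fold higher, and the last, at background in WT, was at least 1.92-fold higher. The first 3 are of the kinds that can bind several transcripts, and all 4 read 1 gene, so they are not independent readings.

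Among the RPD3/HDA1-type deacetylases the ratios were more uneven. HDA108 (hd1b, LOC541681) had 383 in D11, against 197 in WT, a 1.94-fold higher signal. The gene hda110 was 1.55-fold higher, hda102 1.28-fold and hda101 (rpd3, LOC541931) 1.21-fold, with 1851 in D11, against 1535 in WT for hda101. Hda1 (LOC541883), which also carries the synonym rpd3, did not differ beyond the spikes, with 476 in D11, against 481 in WT. The gene hda113 had 436 in D11, against 303 in WT by one probe set (1.44-fold) but 150 and 146 by another, and the direction of the second turned with quantile normalization and lowess centring. Thus HDA108 stood beside hdt102 and hdt103 near 2-fold, while Hda1 and hda101 lay within the range of the spikes.

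Histone acetyltransferases add the mark that deacetylases take away. Of 6 such genes and partners, 5 were higher in D11 and 1 was lower, none by 2-fold. The gene hac106 (hat1, LOC542083) had 383 in D11, against 222 in WT (1.72-fold). The gene hac108 (ham101, LOC541950), whose synonym marks it as an acetyltransferase of the MYST class, had 431 in D11, against 264 in WT (1.63-fold). The acetyltransferase GCN5, hag101 (LOC542030), was nearly equal with 274 in D11, against 253 in WT, and its direction turned with quantile normalization and lowess centring. Its adaptor ADA2, hxa102, had 485 in D11, against 397 in WT (1.22-fold), and hxa103 was also 1.22-fold higher. The enhancer-of-polycomb-like gene epl101 had 108 in D11, against 120 in WT, a 1.12-fold lower signal. The genes hac106 and hac108 were thus the only acetyltransferase genes beyond the range of the spikes.

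The Polycomb repressive complex PRC2 methylates histone H3 and holds developmental genes silent. It needs an Enhancer of zeste subunit (mez genes) and the WD40 protein FIE. The gene fie2 (LOC542076) had 317 in D11, against 143 in WT, a 2.22-fold higher signal. Its paralog fie1 (LOC542075), known in maize as an imprinted gene of the endosperm, was at background in both stems, with 4.89 in D11, against 4.97 in WT. The mez genes did not move together. The gene mez3 (LOC541955) had 54.5 in D11 and was at background in WT with 24.4, so that it was at least 1.97-fold higher. The gene mez2 had 246 in D11, against 171 in WT (1.44-fold higher), whereas mez1 had 238 in D11, against 273 in WT (1.14-fold lower).

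The SET domain genes of the sdg group, many of which encode histone methyltransferases, showed small differences that lay within the range of the spikes. SDG123 had 199 in D11, against 153 in WT (1.30-fold higher), sdg113 was 1.18-fold higher and sdg118 1.17-fold higher. The gene sdg110 (LOC542662) had ratios of 1.10-fold and 1.15-fold, higher in D11, by the 2 probe sets above background, while its 2 others were at background in both stems. A second probe set of sdg113 was also at background. With quantile normalization sdg110 and sdg118 turned to slightly lower, and the median of the Polycomb and SET domain probe sets, 0.23 over 8 above background, turned to -0.01, so no direction is given for this family.

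**Figure D3:**
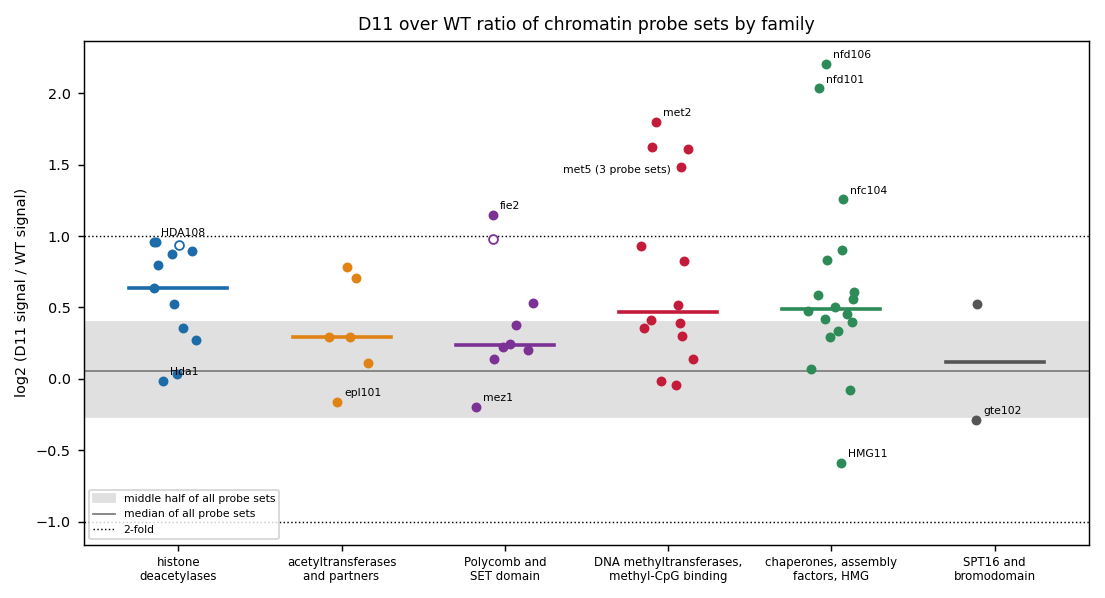
Log2 ratio of D11 over WT signal (vertical axis) of chromatin probe sets by family. Filled points were above background in both arrays, open points in D11 alone (lower bounds), coloured bars are medians of the filled points, and the grey line and band give the median and the middle 50% of all 12462 probe sets. BET1 is not drawn. The medians lie between 0.12 and 0.63, and that of the Polycomb and SET domain family, 0.23, is -0.01 with quantile normalization.

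The CG methyltransferase and chromomethylase genes all had higher signals in D11. MET1-type enzymes copy CG methylation after replication, and chromomethylases maintain methylation at CHG sites. The chromomethylase gene met2 (LOC541827) had 227 in D11, against 65.2 in WT, a 3.48-fold higher signal. The second chromomethylase gene, met5 (Zmet5, LOC542060), had 104, 117 and 136 in D11 and 37.2, 38.2 and 44.8 in WT by 3 probe sets. These were 2.79-fold, 3.08-fold and 3.05-fold higher, and the remaining met5 probe set was at background in both stems. The CG methyltransferase gene dmt101 (met1, LOC542082) had 382 in D11, against 215 in WT (1.77-fold), and dmt106 had 176 in D11, against 92.8 in WT (1.90-fold). Signals of met5 in WT were close to background. After an offset of 24.7 (percentile 25 over the 2 arrays) had been added to damp weak ratios, the log2 ratio of met2 was 1.49 in place of 1.80, and those of met5 lay between 1.05 and 1.21. The 4 genes were higher in D11 under each scaling tried.

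Proteins with a methyl-CpG-binding domain (mbd genes) belong to the family named for reading DNA methylation, though not every plant member binds methylated DNA. Their signals differed less between the stems. The gene mbd108 was 1.43-fold higher in D11, with 488 in D11, against 341 in WT. The gene mbd111 was 1.33-fold higher, mbd101 1.31-fold, mbd106 1.28-fold and mbd109 1.10-fold. On the other side mbd105 had 962 in D11, against 973 in WT, and mbd115 had 634 in D11, against 653 in WT. Only mbd108 passed the largest spike difference. The gene listed as met4 (LOC542067), whose product the tables used here do not describe, had 206 in D11, against 168 in WT. The met1-type, dmt106 and chromomethylase genes thus lay at 1.77-fold to 3.48-fold, all above the 7 mbd genes. The gene met4, at 1.23-fold, did not share this and lay among the mbd genes, within the range of the spikes.

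High mobility group B (HMGB) proteins bend DNA and loosen chromatin, and the highest ratios of the members above background were found in this group. The gene nfd106 (LOC541952) had 292 in D11, against 63.1 in WT, a 4.62-fold higher signal. The gene nfd101 (LOC542658) had 1492 in D11, against 364 in WT, a 4.10-fold higher signal. The nfd101 probe set is of the kind that several transcripts can bind, so related HMG genes may add to its signal. The ratios of the other nfd genes were smaller. The gene nfd104 (hmg2, LOC541951) was 1.50-fold and 1.42-fold higher by 2 probe sets, with 1654 and 3439 in D11, against 1104 and 2428 in WT. The gene nfd102 (HMGe) had 840 in D11, against 570 in WT (1.47-fold). In contrast HMG11 (hmg3, LOC542455) had 54.2 in D11, against 81.4 in WT, a 1.50-fold lower signal. It was the lowest ratio among members above background in both arrays.

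The FACT complex, made of SSRP1 and SPT16, moves nucleosomes out of the way of polymerases. SSRP1 (nfd110, LOC542007) had 916 in D11, against 727 in WT (1.26-fold), and SPT16 (gtc102, LOC542546) had 959 in D11, against 667 in WT (1.44-fold). The bromodomain gene gte102, whose family binds acetylated histones, had 707 in D11, against 862 in WT and was 1.22-fold lower. Both FACT genes were thus higher and gte102 lower, and only SPT16 passed the spikes.

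Nucleosome assembly proteins of the nfa group, histone chaperones of the NAP type, were mostly higher. The gene nfa101 (LOC542113) had 1009 in D11, against 539 in WT (1.87-fold), and nfa103 had 927 in D11, against 521 in WT (1.78-fold). The gene nfa104 was higher by both of its probe sets, 1.37-fold and 1.53-fold. The exception was nfa102, with 542 in D11, against 572 in WT.

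The nfc genes encode WD40 proteins of the MSI1 type, a class whose members serve in chromatin assembly factor 1, in PRC2 and in deacetylase complexes. The gene nfc104 (LOC542084) had 183 in D11, against 76.6 in WT, a 2.39-fold higher signal. The gene nfc101 (rbap2, LOC542087) had 1311 in D11, against 941 in WT (1.39-fold). The gene nfc102 was 1.32-fold, 1.34-fold and 1.22-fold higher by 3 probe sets, with 953, 1813 and 1638 in D11, against 724, 1357 and 1337 in WT. The gene nfc103 had 1852 in D11, against 1765 in WT (1.05-fold). All 4 genes were higher in D11, but only nfc104 by 2-fold. Over the whole family of chaperones, assembly factors and HMG proteins, 16 of 18 probe sets were higher, with a median log2 ratio of 0.49 that stayed between 0.46 and 0.50 under 4 other scalings.

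Genes read by several probe sets gave a limited check within the arrays. The probe sets of a gene read the same RNA samples and are not independent. With 51 of 59 chromatin probe sets higher, agreement in direction was likely in any case. Of 7 genes with at least 2 probe sets above background in at least 1 array, all had them in the same direction on the deposited scale. These are hda113, hdt103, met5, nfa104, nfc102, nfd104 and sdg110. With quantile normalization the agreement was lost for hda113, and sdg110 turned as a whole. With lowess centring it was lost for both, with log2 ratios of 0.39 and -0.12 for hda113 and of -0.01 and 0.06 for sdg110.

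BET1, the endosperm gene taken by name, had 18.1 in D11, at background, and 43.0 in WT, and was thus at least 1.74-fold lower. Without it 42 of 50 genes were higher, where 54.8% of all probe sets above background in at least 1 array were.

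Genes that work beside the chromatin proteins were looked up by name. Of 16 probe sets for DNA replication and the cell cycle, 12 were higher in D11 and 4 lower, with a median log2 ratio of 0.42. Of all probe sets above background in at least 1 array, 54.8% were higher. Of the 16, 7 were at least 2-fold higher and 1 at least 2-fold lower. The like counts over the 13671 probe sets above background in at least 1 array were 961 and 551, which make 5.45% and 3.13% of all 17621. Several of the 7 read MCM6, so they stand for fewer genes. The probe sets of cdc2 and RBR1 lay within the range of the spikes. PCNA, the sliding clamp of replication, which recruits assembly factors, had 526 in D11, against 95.6 in WT (5.50-fold). MCM7, a subunit of the replicative helicase, had 153 in D11, against 37.2 in WT (4.11-fold). The D-type cyclin gene cycD1 went the other way, with 33.8 in D11, against 95.3 in WT (2.82-fold lower). The retinoblastoma-related gene RBR2, with 94.5 in D11, against 101 in WT, lay within the range of the spikes. Of 8 histone probe sets above background, 7 were higher in D11, against 55.0% of all above background in both arrays. Within the range of the spikes lay 5 of the 8. The higher ones include the histone H2B gene his2b5 with 747 in D11, against 33.9 in WT (22.0-fold). The centromeric histone gene cenH3 had 192 in D11, against 61.3 in WT (3.13-fold). Linker histone genes were uneven, with 1155 in D11, against 552 in WT, for hon101 (2.09-fold) and a 1.18-fold ratio for his1a. H1 was 1.15-fold to 1.19-fold higher by 3 probe sets and lower by another (log2 ratio -0.26), with 31.3 in D11, against 37.5 in WT. The one RNA silencing gene, rmr7, for a subunit of the plant-specific RNA polymerases that direct DNA methylation, had 201 in D11, against 152 in WT (1.32-fold).

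**Figure D4:**
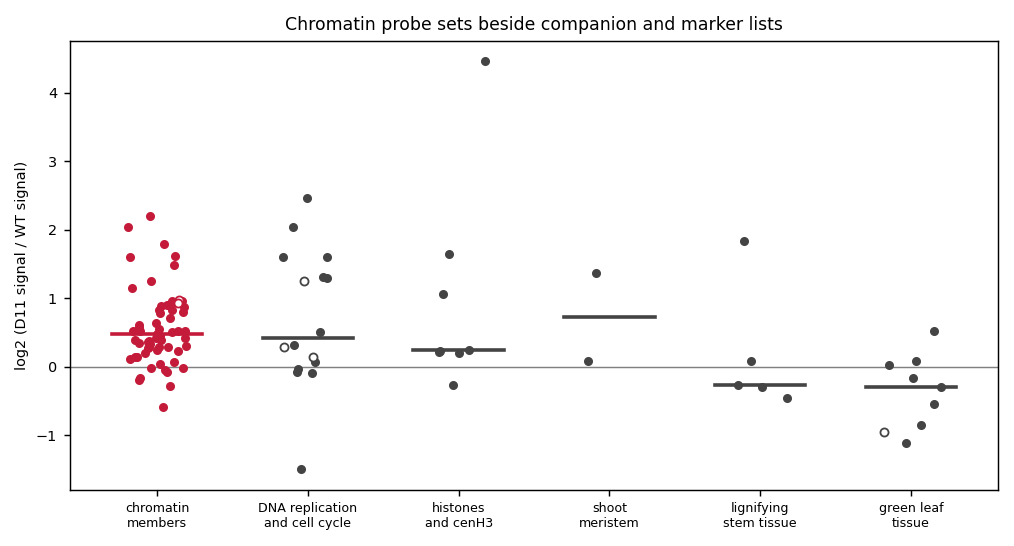
Log2 ratio of D11 over WT signal (vertical axis) of chromatin probe sets without BET1 (red) and of companion and marker lists (grey), with probe sets above background in at least 1 array. Open points are bounds and horizontal bars are medians. The median is 0.48 for chromatin, 0.42 for DNA replication and cell cycle, 0.24 for histones and -0.27 for lignifying stem tissue.

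Markers of tissues that a stem sample can hold were set beside these values. Markers of lignifying stem tissue were above background in all 5 probe sets, with a summed signal of 16811 in D11, against 17465 in WT. Only the lignin enzyme gene CCR passed the largest spike difference, 3.58-fold higher with 1534 in D11, against 428 in WT. The other 4 lay within the range of the spikes. Of these, the cellulose synthase genes cesa10, cesa11 and CesA12 were lower by 1.38-fold, 1.21-fold and 1.22-fold, and BM1 was 1.06-fold higher. Of the shoot meristem markers, the homeobox gene kn1 had 1762 in D11, against 1664 in WT (1.06-fold), and lg3 had 788 in D11, against 303 in WT (2.60-fold), with a sum of 2550 in D11, against 1968 in WT. Green leaf markers summed to 13326 in D11, against 13137 in WT over 10 probe sets. Of the 9 above background in at least 1 array, 6 were lower in D11, with a median log2 ratio of -0.30. Most of these 6 read 1 gene, C4ppdkZm1, so the markers did not move together by gene. The C4 enzyme gene C4ppdkZm1 was 2.15-fold lower by one probe set, with 116 in D11, against 249 in WT. By gene, pep1 was at least 1.92-fold lower and ME1 1.12-fold lower. RA was 1.43-fold higher, with 582 in D11, against 406 in WT, rbcS 1.06-fold higher and Cab-m7 1.01-fold higher. Endosperm markers were at background in both stems for 12 of 15 probe sets and summed to 1513 in D11, against 903 in WT, most of it from 1 of 3 probe sets of the gamma zein gene gz27, with 1245 in D11, against 686 in WT. Pollen and anther markers were at background in D11 in all 5 probe sets and in WT in 3, with sums of 60.3 in D11, against 136 in WT. RNA integrity was read from 5 control transcripts by their 3′ to 5′ signal ratios, of which 4 were lower in D11 and 1, that of actin, was higher. The part of dividing, meristem, lignifying or leaf tissue and of RNA integrity in the chromatin ratios was not tested.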

How the data were processed

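Total RNA of D11 and WT stems was measured on 1 Affymetrix array each. The deposited intensities were made by the authors with the MAS 5.0 algorithm, which corrects background, summarizes probe sets and sets a common scale. GeneSpring is given in the paper's methods, and the submitters' processing notes list MAS5 and Affymetrix Expression Console. The table holds 17734 probe sets, of which 113 controls were set aside. Symbols came from the array annotation (1452 probe sets with 1 symbol, 1 with several, 16168 with none) and synonyms, but no coordinates, from the RefSeq gene table of assembly Zm-B73-REFERENCE-NAM-5.0. All 69 members matched it. The members, gene lists and thresholds were chosen with earlier results of these data known, and companion lists were matched by symbol or synonym because the tables hold no descriptions.

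Named in the text are genes at least 2-fold different, the 2 with the highest mean signal per family, genes with several probe sets and genes at background. Other members were added after their values were seen. Counts used 2-fold with signals raised to the control floor, and 5-fold on deposited signals, the fold threshold of the paper's methods. This 5-fold rule called 398 probe sets higher and 453 lower. The paper lists fewer genes, most of them up-regulated, so its list was not reproduced, and the reason was not tested. The number of arrays limits the precision, and no test was possible. Alternatives were other floors, scalings (median, quantile, lowess with span 0.3, spikes), thresholds and subsets. Steps were tested on simulated data. Python 3.11.15, numpy 2.4.6, pandas 2.3.3, statsmodels 0.14.6 and matplotlib 3.10.9 were used.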

Additional observations from a re-analysis of the deposited data

How the results depend on the processing

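Of the 59 chromatin probe sets above background in both arrays, 51 were higher in D11 on deposited signals and with the offset, median centring or spike centring, 48 with lowess centring and 46 with quantile normalization, under which 47.3% of all such probe sets were higher. The probe sets that turned were those of sdg110, sdg118, hag101 and hda113. The median of all 69, 0.40 as reported, lay between 0.32 and 0.43 over the other floors and scalings. Over the subsets of the members it lay between 0.34 and 0.48. Centring and normalization moved the median of all deposited ratios by at most 0.05. For the 12462 probe sets above background in both arrays it was 0.06 as reported, 0.00 with lowess centring and -0.03 with quantile normalization, where the chromatin medians were 0.46, 0.37 and 0.36. With weak signals raised to the controls, the median of all 17621 was -0.12 as reported and 0.00 with either of these. As reported, a probe set at background in both arrays takes the ratio of the floors, 24.7 in D11 over 27.6 in WT, which is a negative log2 ratio. This holds for 3950 of the 17621 and for 7 of the 69, so the -0.12 is not read as a lean towards WT. The 8 probe sets at least 2-fold higher became 4 of 47 among those above the array median in at least 1 array (6.09% of all), 3 of 50 without probe sets that several transcripts can bind (nfd106, met2 and nfc104, against 5.33% of all), and 5 of 69 at 3-fold (2.16% of all). Without a floor, 11 were at least 2-fold higher, against 9.93% of all, and 2 were at least 2-fold lower, BET1 and a background probe set of sdg110, against 9.83% of all. With lowess centring 1 probe set was at least 5-fold higher, against 2.65% of all, that of met5 with 12.6 in D11 and 3.22 in WT, both at background. Leaving out BET1 was chosen after seeing the data and changed no count at 2-fold with the floor or at 5-fold. Without it 8 probe sets were lower in place of 9, and BET1 is 1 of the 2 lower without a floor. No paired analysis was possible because there is 1 array per genotype, and for the same reason no array could be left out.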

Other observations

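HMG proteins whose names the rule did not cover had smaller differences than nfd106 and nfd101. MNB1b (LOC542403), an HMGB protein of maize, had 8227, 6197 and 681 in D11 by 3 probe sets, against 8302, 6377 and 517 in WT. The HMGA gene HMG I/Y-2 (LOC541871), for an AT-hook protein, was 1.66-fold higher, with 1481 in D11, against 891 in WT.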
